A study of Mus musculus with 6 samples.

Results

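Polycomb and trithorax proteins are chromatin regulators that keep genes silent or active through cell divisions. The members described here are 45 mouse genes, listed by name and looked up by symbol, that encode subunits of Polycomb repressive complexes 1 and 2 (PRC1 and PRC2), the BAP1 deubiquitinase module, the H3K27 demethylases and the MLL and SETD1 (COMPASS) H3K4 methyltransferase complexes. All 45 were found among the 46603 gene identifiers of the RNA sequencing count tables, and all 45 passed the filter on low counts, which left 15009 genes to test. The cells were mouse embryonic fibroblasts (MEFs), the mixed stromal cells that grow out of a minced embryo, of the strain BALB/c and labelled as coming from embryos of 10.5 days. The knockout group (KO) comprised 3 libraries of β-actin-/- MEFs and the wild-type group (WT) 3 libraries of MEFs with intact β-actin. Both groups had spent 6 days in growth medium plus IBMX, dexamethasone, ascorbic acid and insulin, a mixture used to drive fibroblasts toward fat cells. The labels do not say whether replicates were separate cultures, embryos or clones, so p-values measure only the spread between these libraries, which may be technical. No library from before induction was analysed here, and a difference between the genotypes that was present beforehand cannot be told apart from one that arose in the medium.

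PRC2 places methyl groups on lysine 27 of histone H3 through its catalytic subunits EZH1 and EZH2, and PRC1 attaches ubiquitin to histone H2A through RING1 and RNF2 (RING1B). Both marks go with gene silencing. They are removed by the demethylases KDM6A and KDM6B and by the BAP1 deubiquitinase, while MLL (KMT2) and SETD1 enzymes place methyl groups on lysine 4 of histone H3 at active promoters and enhancers. In fat cell differentiation, Polycomb proteins are known to hold down developmental and lineage genes, and KMT2C and KMT2D to prime enhancers of adipogenic genes.

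Library totals were 30240750, 34990950 and 38619711 counts in KO replicates 1, 2 and 3 and 30235906, 29850826 and 26955708 counts in WT replicates 1, 2 and 3. Actb, the targeted gene, had 276, 1988 and 1850 counts in the KO libraries and 60501, 60582 and 53894 counts in the WT libraries, a log2 fold change of -5.55 (SE 0.80, edgeR adjusted p = 0.00088). KO replicate 1 stood apart: on the second principal component of the tested genes, which held 16.0% of the variance, it lay at 40.2, against -26.2 and -23.5 for the other KO libraries and -0.29, 3.2 and 6.6 for the WT libraries. Of the 13 listed fibroblast markers, 8 were called higher in KO and none lower. Of these 8, Col1a2, Thy1 and Lum passed the filter on low counts through the KO libraries alone, which favours a difference. The count is therefore not set against the background. The 13 markers summed to 7203 to 9794 CPM in KO and 3143 to 3910 CPM in WT. Most of that sum came from Fn1, which encodes fibronectin, at 4950 CPM in KO and 2109 CPM in WT. Next were Col1a1, a collagen chain, at 1545 CPM in KO and 560 CPM in WT, and Vim at 1186 CPM in KO and 605 CPM in WT. Col1a2 stood at only 6.00 CPM in KO and 0.300 CPM in WT and Thy1 at 0.533 CPM in KO and 0.0105 CPM in WT. The 8 adipocyte markers summed to 177 to 285 CPM in KO and 27.3 to 36.2 CPM in WT. Adipoq and Plin1, genes of mature adipocytes, were at or near 0. Adipoq had 1 count in KO and 0 in WT, and Plin1 had 6 counts in KO and 5 in WT. Lpl was called higher in KO (log2 fold change 5.70, edgeR adjusted p = 0.000124), as was Pparg (0.73, 0.0205). The Pparg call was lost with library totals (0.0628) and without KO replicate 2 (0.0523) or WT replicates 1 or 2 (0.0813 and 0.0845). Cebpa was lower, at -4.20. The 8 macrophage markers summed to 20.5 to 30.4 CPM in KO and 18.2 to 36.4 CPM in WT. The 6 endothelial markers summed to 2.15 to 3.68 CPM in KO and 3.36 to 4.69 CPM in WT, and the 6 epithelial markers to 30.3 to 50.6 CPM in KO and 5.03 to 10.3 CPM in WT. Among those tested, 2 of 4 adipocyte markers were called higher and 1 lower, 0 of 3 macrophage markers higher and 1 lower, 0 of 5 endothelial markers higher and 1 lower, and 2 of 3 epithelial markers higher and 1 lower. The lower calls among these markers passed the filter through the WT libraries alone, and 1 of the higher epithelial calls through the KO libraries alone. Epcam, an epithelial marker, had 0 counts in KO and 127 in WT. The other tested epithelial markers went the other way. Krt19 had a log2 fold change of 2.66 (edgeR adjusted p = 0.00197). Krt18 had one of 5.52, but passed the filter through the KO libraries alone, which favours a difference. Ptprc, which defines leukocytes, had 1 count in KO and 0 in WT, and Cdh5, which defines endothelium, had 5 counts in KO and 2 in WT. The part of cell makeup in the values that follow was not tested, and in bulk RNA fewer cells of a type and less RNA per cell cannot be told apart.

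A minority of the subunits changed, some up and some down, most of them by less than 1 on the log2 scale. Of the 45 members, 9 were higher in KO, 4 were lower and 32 were not called at an adjusted p below 0.05. Those 13 calls are 28.9% of the members, against 28.3% of all tested genes, so the share called is near the background. The 9 higher members are 20.0% of the list, against 13.8% of all tested genes, and the 4 lower members are 8.89%, against 14.5%. The members that rose were Jarid2, Rnf2, Pcgf5, Cbx2, Cbx8, Rybp, Yaf2, Asxl2 and Kdm6a, and those that fell were Phf19, Ring1, Bap1 and Men1. Summed over all members the level was 3608 to 3781 CPM (counts per 1e6, in libraries scaled with TMM) in KO and 3502 to 3588 CPM in WT, and the groups did not overlap. This direction depends on the scaling, since as a share of all counts, without TMM, the members took 0.333, 0.355 and 0.344% in KO and 0.369, 0.377 and 0.394% in WT, with KO below. The median log2 fold change, KO over WT, was 0.04 for the members and 0.01 for all tested genes.

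**Figure D1:**
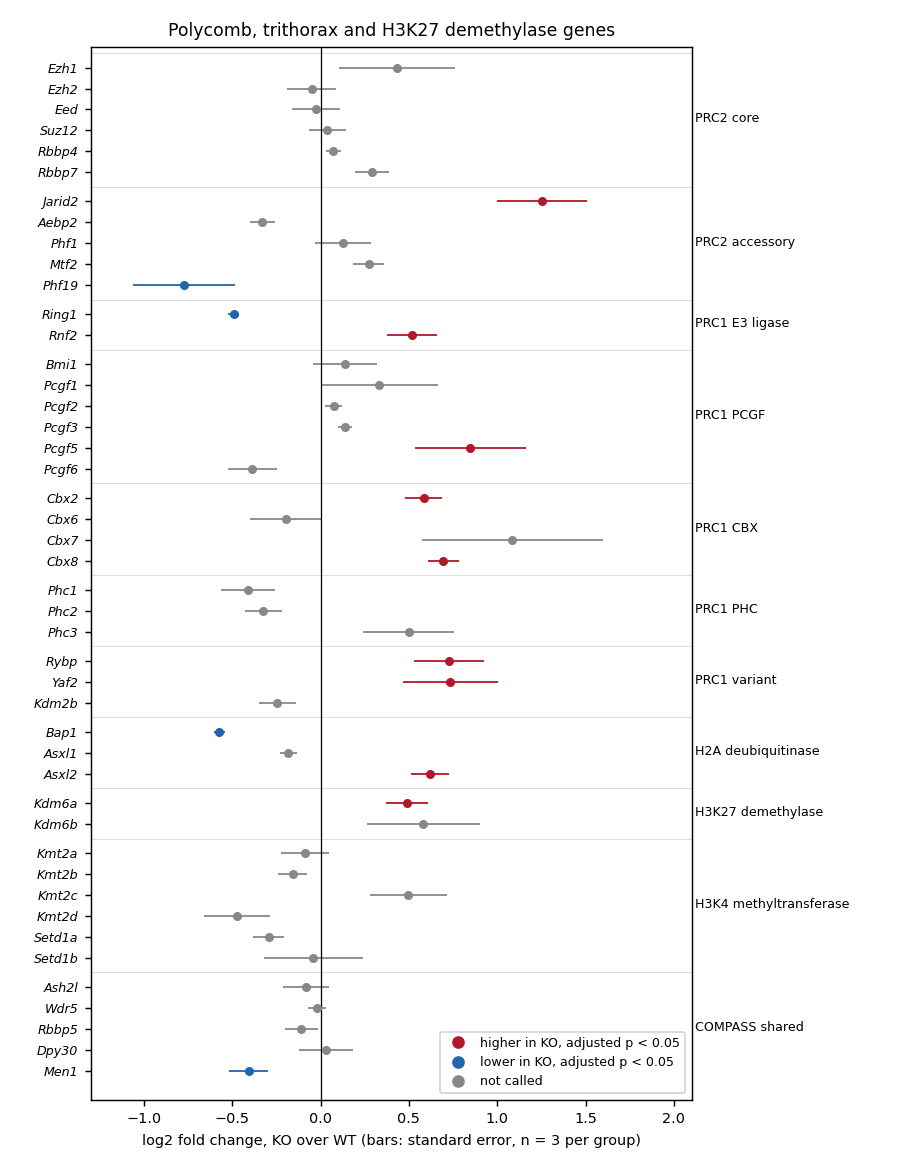
Log2 fold change, KO over WT, of the 45 members grouped by role (points, with bars for the standard error of the difference in mean log2 CPM, n = 3 per group). Jarid2 lies farthest to the right at 1.25 and Phf19 farthest to the left at -0.77. Most PRC2 core and COMPASS shared subunits lie close to 0, and the H3K4 methyltransferases range from -0.47 to 0.50.

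Changes were small. Only 1 of the 45 members, Jarid2, was called and also had a log2 fold change of at least 1 in size, which is 2.22% of the list, against 15.3% of all tested genes. Among the 9764 tested protein-coding genes whose mean level lay within the members' own range of 7.05 to 426 CPM, 8.55% passed that rule, and the median absolute log2 fold change was 0.31, against 0.33 for the members. KO and WT libraries did not overlap for 27 members (60%), 14 with KO above and 13 with KO below, against 49.6% of all tested genes (23.8% with KO above and 25.8% with KO below). With libraries scaled to their totals alone, the median of all genes shifted to -0.19 and that of the members to -0.16, and the split of calls became 3 higher and 12 lower. It was 9 and 7 with upper-quartile scaling, 8 and 2 with a library-wise offset for the GC content of each gene fitted by least squares (called the GC offset here), and 5 and 3 with the same offset fitted by robust regression. Without KO replicate 1 the calls numbered 13 higher and 8 lower, all 13 original calls among them. Without WT replicate 1 they numbered 3 and 1, without WT replicate 2 they numbered 2 and 1, without WT replicate 3 they numbered 6 and 2, and without KO replicate 3 they numbered 7 and 1.

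The promoters of 6 members are given because the results turn on these genes: Jarid2, Asxl2 and Bap1 kept their calls whichever library was left out, Rnf2 and Ring1 are alternative ligase subunits that moved in opposite directions, and Cbx8 rose together with its genomic neighbour Cbx2. Each run is the 250 bases before the first listed RefSeq start of the gene in GRCm38.p6. It is read 5′ to 3′ on the strand of the gene, and capitals mark CpG pairs. Gene positions given below come from another annotation, GENCODE M21, and the starts can differ. The Jarid2 run lies inside the gene bounds given there (44729474 to 44921643), downstream of that start. The Bap1 and Cbx8 runs reach partly into theirs.
Jarid2 at chr13:44730524-44730773, plus strand: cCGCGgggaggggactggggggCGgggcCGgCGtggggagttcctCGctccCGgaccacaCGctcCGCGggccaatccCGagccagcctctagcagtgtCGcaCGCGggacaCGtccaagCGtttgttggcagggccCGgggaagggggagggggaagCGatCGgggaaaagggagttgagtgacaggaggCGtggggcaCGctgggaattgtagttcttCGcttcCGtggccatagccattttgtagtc
Asxl2 at chr12:3426607-3426856, plus strand: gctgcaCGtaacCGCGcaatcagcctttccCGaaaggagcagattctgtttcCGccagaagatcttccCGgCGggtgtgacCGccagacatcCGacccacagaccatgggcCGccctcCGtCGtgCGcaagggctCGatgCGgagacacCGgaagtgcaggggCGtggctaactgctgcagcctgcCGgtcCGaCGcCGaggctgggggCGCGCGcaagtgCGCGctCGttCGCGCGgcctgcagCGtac
Bap1 at chr14:31251239-31251488, plus strand: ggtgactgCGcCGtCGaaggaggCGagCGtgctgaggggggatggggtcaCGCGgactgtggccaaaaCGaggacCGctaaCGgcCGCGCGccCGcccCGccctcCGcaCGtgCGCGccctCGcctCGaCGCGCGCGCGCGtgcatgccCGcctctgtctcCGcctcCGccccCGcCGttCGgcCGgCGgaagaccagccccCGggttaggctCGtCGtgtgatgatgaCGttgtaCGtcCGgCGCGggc
Rnf2 at chr1:151500992-151501241, minus strand: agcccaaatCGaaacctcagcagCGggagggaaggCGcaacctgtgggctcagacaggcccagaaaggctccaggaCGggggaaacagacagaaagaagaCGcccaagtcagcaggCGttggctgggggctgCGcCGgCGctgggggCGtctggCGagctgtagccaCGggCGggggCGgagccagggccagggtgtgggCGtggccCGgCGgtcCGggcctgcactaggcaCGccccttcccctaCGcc
Ring1 at chr17:34024681-34024930, minus strand: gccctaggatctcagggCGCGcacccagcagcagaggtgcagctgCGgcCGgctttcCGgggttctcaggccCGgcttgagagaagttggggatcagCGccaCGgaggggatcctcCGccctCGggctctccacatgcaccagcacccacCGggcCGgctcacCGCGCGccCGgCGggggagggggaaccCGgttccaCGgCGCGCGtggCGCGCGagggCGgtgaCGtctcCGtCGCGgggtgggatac
Cbx8 at chr11:119040914-119041163, minus strand: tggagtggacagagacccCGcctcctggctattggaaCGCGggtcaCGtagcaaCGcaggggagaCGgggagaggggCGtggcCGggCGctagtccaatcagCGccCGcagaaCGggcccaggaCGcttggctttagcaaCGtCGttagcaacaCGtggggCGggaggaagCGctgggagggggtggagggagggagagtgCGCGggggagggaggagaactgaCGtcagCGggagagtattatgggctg
The windows hold 23, 31, 43, 20, 30 and 22 CpG pairs in the order printed. A window was found for 37 members (none for Yaf2, Ash2l, Setd1b, Kdm6b, Pcgf1, Cbx2, Kmt2b and Rybp). The first listed window of each member had a median of 21 CpG pairs and a range of 1 to 48. The median over all 32851 windows of the table was 6. At least 15 pairs were present in 23 of the 37, against 27.3% of all windows. 3 short motifs were searched on both strands. A member was counted if any of its listed windows held the motif, while the background counts single windows. The shares are therefore not like for like. The E2F motif TTTCCCGC was found for Suz12 and Phf19 (5.41% of the members, 0.895% of all windows). The cyclic AMP response element TGACGTCA was found for Cbx8 (2.7% and 1.55%) and CCAAT for 14 members (37.8% and 33.8%). The printed windows of members that rose hold 20 to 31 pairs and those of members that fell 30 and 43. These 6 windows were picked, and rising and falling members were not compared over all called members.

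None of the 6 core subunits of PRC2 was called. Ezh2, the main methyltransferase of dividing cells, stood at 65.7, 88.2 and 84.2 CPM in KO replicates 1, 2 and 3 and at 83.5, 77.9 and 85.3 CPM in WT replicates 1, 2 and 3. The groups overlapped, with KO replicate 1 the lowest of the 6 libraries, and the log2 fold change was -0.05 (SE 0.14, adjusted p = 0.805). Ezh1, its less active relative of resting cells, stood at 68.2, 41.9 and 34.4 CPM in KO and at 31.9, 31.7 and 43.4 CPM in WT. KO replicate 1 was the highest of the 6 libraries and the other KO libraries lay within the WT range, so that a log2 fold change of 0.43 (SE 0.33, adjusted p = 0.256) became 0.10 without that library. Suz12 and Eed, the scaffold and the reader of methylated H3K27, and Rbbp4, a histone-binding subunit shared with other complexes, had log2 fold changes of 0.04, -0.03 and 0.07. Rbbp7, the paralogue of Rbbp4, had 368, 429 and 408 CPM in KO and 360, 305 and 321 CPM in WT, with no overlap and a log2 fold change of 0.29 (SE 0.10, adjusted p = 0.119), and it was called only when KO replicate 1 was left out (0.35, adjusted p = 0.0254). Per kilobase of exon, Rbbp7 was the most abundant core subunit at 138 CPM per kb in KO and 113 in WT. Rbbp4 followed at 49.9 in KO and 47.5 in WT, and Suz12 at 40.3 in KO and 39.2 in WT. Ezh2 stood at 11.9 in KO and 12.3 in WT and Ezh1 at 6.47 in KO and 4.79 in WT. Of the 50-base pieces of Rbbp7, 15.1% also occur in other transcripts. Of the exon bases of Rbbp4, 18% lie in exons of Gm26722 and Sync on the opposite strand. The levels of Rbbp7 and Rbbp4 are therefore uncertain.

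The accessory subunits, which recruit PRC2 to chromatin and tune its activity, held both the largest rise and the largest fall among the members. Jarid2 (ENSMUSG00000038518, chromosome 13, 44729474 to 44921643 in GRCm38, plus strand), a Jumonji-family protein without demethylase activity that recruits PRC2, stood at 51.1, 31.3 and 34.1 CPM in KO and at 15.5, 14.0 and 19.2 CPM in WT. Every KO library was above every WT library. The means were 38.8 ± 10.7 CPM in KO and 16.3 ± 2.68 CPM in WT (SD, n = 3 each), a 2.38-fold rise (log2 fold change 1.25, SE 0.26, adjusted p = 0.00575), and the value was 1.01 without KO replicate 1, the highest library. Jarid2 kept its call in each of the 6 fits that left out a library. Phf19, a Polycomb-like protein that binds methylated H3K36 and CpG-rich DNA, stood at 7.89, 14.97 and 13.1 CPM in KO and at 21.1, 21.8 and 18.7 CPM in WT. The groups did not overlap and KO replicate 1 was the lowest. Phf19 fell by 0.77 on the log2 scale (SE 0.29, adjusted p = 0.0471), and by 0.55 without KO replicate 1 (adjusted p = 0.00871), but it was not called without KO replicate 3 (adjusted p = 0.0810) or WT replicates 1, 2 or 3 (0.130, 0.147 and 0.0938), nor with a GC offset (-0.58, 0.0873). Its relatives Mtf2 and Phf1 had log2 fold changes of 0.27 (SE 0.09, adjusted p = 0.107) and 0.13 (SE 0.16, adjusted p = 0.602). Mtf2 was above WT in all KO libraries, at 83.9, 100.3 and 98.5 CPM in KO and 75.7, 77.8 and 80.6 CPM in WT, and was called without KO replicate 1 (0.35, adjusted p = 0.00797). With a GC offset its sign turned, to -0.06 (adjusted p = 0.716), and with the robust one it stood at 0.02 (adjusted p = 0.930). As a share of the 3 Polycomb-like genes per kilobase, Phf19 made up 9.504 ± 2.45% in KO and 17.6 ± 1.78% in WT (SD, n = 3 each). Aebp2, a zinc finger protein found with Jarid2 in one form of PRC2, stood at 110.2, 94.4 and 100.4 CPM in KO and 123, 128 and 133 CPM in WT, with no overlap (log2 fold change -0.33, SE 0.07, adjusted p = 0.0520), and it was called lower in several alternatives, among them library totals (adjusted p = 0.00672), the fit without KO replicate 1 (-0.39, 0.00661) and a GC offset (0.00761). Of the exon bases of Phf1, 39.3% lie in exons of Cuta on the opposite strand, and the library kit does not mark strand.

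The catalytic ligases of PRC1 moved in opposite directions. Rnf2 (ENSMUSG00000026484, chromosome 1, 151458004 to 151500955, minus strand) stood at 100.1, 76.3 and 75.1 CPM in KO and at 57.9, 55.6 and 62.0 CPM in WT. Ring1 (ENSMUSG00000024325, chromosome 17, 34020792 to 34024680, minus strand) stood at 26.8, 25.2 and 25.2 CPM in KO and at 36.0, 36.6 and 35.8 CPM in WT. Neither gene had overlapping groups. Rnf2 averaged 83.8 ± 14.1 CPM in KO and 58.5 ± 3.21 CPM in WT (log2 fold change 0.52, SE 0.14, adjusted p = 0.0294), and Ring1 averaged 25.7 ± 0.923 CPM in KO and 36.1 ± 0.402 CPM in WT (log2 fold change -0.49, SE 0.03, adjusted p = 0.0148). Of the ligase transcripts per kilobase, Rnf2 made up 71.7 ± 2.52% in KO and 56.0 ± 1.60% in WT (SD, n = 3 each), and the log2 ratio of Rnf2 to Ring1 was 1.35 ± 0.18 in KO and 0.35 ± 0.09 in WT. The 2 genes differ in base composition, with 39.5% GC in Rnf2 and 56.9% in Ring1, and an offset for GC content brought Rnf2 to 0.24 (adjusted p = 0.224), Ring1 to -0.14 (adjusted p = 0.396) and the difference in their log2 ratio, KO minus WT, to 0.39, against 1.00 without it. The robust GC offset gave 0.30 for Rnf2 (adjusted p = 0.137), -0.27 for Ring1 (adjusted p = 0.125) and a difference of 0.57. The Rnf2 call was also lost when WT replicate 1, 2 or 3 was left out (adjusted p = 0.0978, 0.122 and 0.0705) and with library totals (0.31, 0.0993), and that of Ring1 without KO replicates 2 or 3 (0.0512 and 0.0627) or WT replicates 1 or 2 (0.0517 and 0.0731).

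Of the 6 PCGF genes, which encode the ring finger partners that define the PRC1 subtypes, only Pcgf5 was called. Pcgf5, a partner in variant PRC1, stood at 70.7, 39.5 and 35.6 CPM in KO and at 26.5, 29.4 and 25.1 CPM in WT. KO replicate 1 was far above the rest, yet the groups did not overlap without it. Pcgf5 rose by 0.85 on the log2 scale (SE 0.32, adjusted p = 0.0449), or by 0.48 with KO replicate 1 left out (adjusted p = 0.0084). The call was lost without WT replicates 1, 2 or 3 (adjusted p = 0.133, 0.106 and 0.142), with a GC offset (0.61, 0.122), library totals (0.63, 0.0748) and limma-voom (0.0633). Bmi1 and Pcgf2, the partners in canonical PRC1, had log2 fold changes of 0.14 and 0.07, and Pcgf1 and Pcgf3, partners in variant PRC1, of 0.33 and 0.14. Of the 50-base pieces of Pcgf1 and Bmi1, 31.3% and 18.5% also occur in other transcripts, so their levels are uncertain. Pcgf6, the partner in the complex with E2F6, stood at 36.9, 26.4 and 31.3 CPM in KO and at 40.1, 41.5 and 42.0 CPM in WT, without overlap (log2 fold change -0.39, SE 0.14, adjusted p = 0.0859), and it was called without KO replicate 1 (-0.51, adjusted p = 0.00536). Bmi1 too was called without that library (0.28, adjusted p = 0.0464), but stood at -0.11 with a GC offset and -0.07 with the robust one. As a share of PCGF transcripts per kilobase, Pcgf6 made up 13.1 ± 1.85% in KO and 18.4 ± 0.533% in WT, and Pcgf5 made up 7.95 ± 2.79% in KO and 4.80 ± 0.333% in WT (SD, n = 3 each).

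CBX proteins are the subunits by which canonical PRC1 reads methylated H3K27, and 2 of the 4 members rose. Cbx2, which also compacts chromatin, stood at 49.8, 55.0 and 50.6 CPM in KO and at 34.3, 30.9 and 38.7 CPM in WT, and Cbx8 at 25.2, 23.8 and 23.2 CPM in KO and at 16.6, 14.2 and 13.8 CPM in WT. The KO libraries of both genes lay close together and above every WT library. Cbx2 averaged 51.8 ± 2.81 CPM in KO and 34.6 ± 3.88 CPM in WT (log2 fold change 0.58, SE 0.10, adjusted p = 0.0124), and Cbx8 averaged 24.1 ± 1.03 CPM in KO and 14.9 ± 1.48 CPM in WT (log2 fold change 0.69, SE 0.09, adjusted p = 0.00909). With a GC offset both values were larger, at 0.96 and 0.95 (adjusted p = 0.00203 and 0.003). The Cbx2 call was lost when WT replicate 1 or 2 was left out (adjusted p = 0.0545 and 0.0713) and with library totals (0.38, 0.0763), and that of Cbx8 without WT replicate 2 (0.0547). The pair are neighbours on chromosome 11, Cbx2 at 119022962 to 119031270 on the plus strand and Cbx8 at 119036305 to 119040969 on the minus strand, 5034 bases apart. Cbx7, which binds methylated H3K27 and represses the Cdkn2a locus in fibroblasts, stood at 53.1, 18.5 and 18.7 CPM in KO and at 12.4, 15.6 and 14.5 CPM in WT. Its groups did not overlap, and KO replicate 1 was far above the other libraries. The log2 fold change was 1.09 (SE 0.51, adjusted p = 0.0867), and 0.39 without that library (adjusted p = 0.0387). Cbx6, the most abundant CBX member per kilobase at 21.9 CPM per kb in KO and 25.1 in WT, had a log2 fold change of -0.20 (SE 0.20, adjusted p = 0.432), which turned to 0.05 with a GC offset (adjusted p = 0.842). Its share of the 4 CBX members was 48.2 ± 8.68% in KO and 63.6 ± 2.91% in WT, while that of Cbx2 was 26.9 ± 0.449% in KO and 20.7 ± 2.87% in WT.

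**Figure D2:**
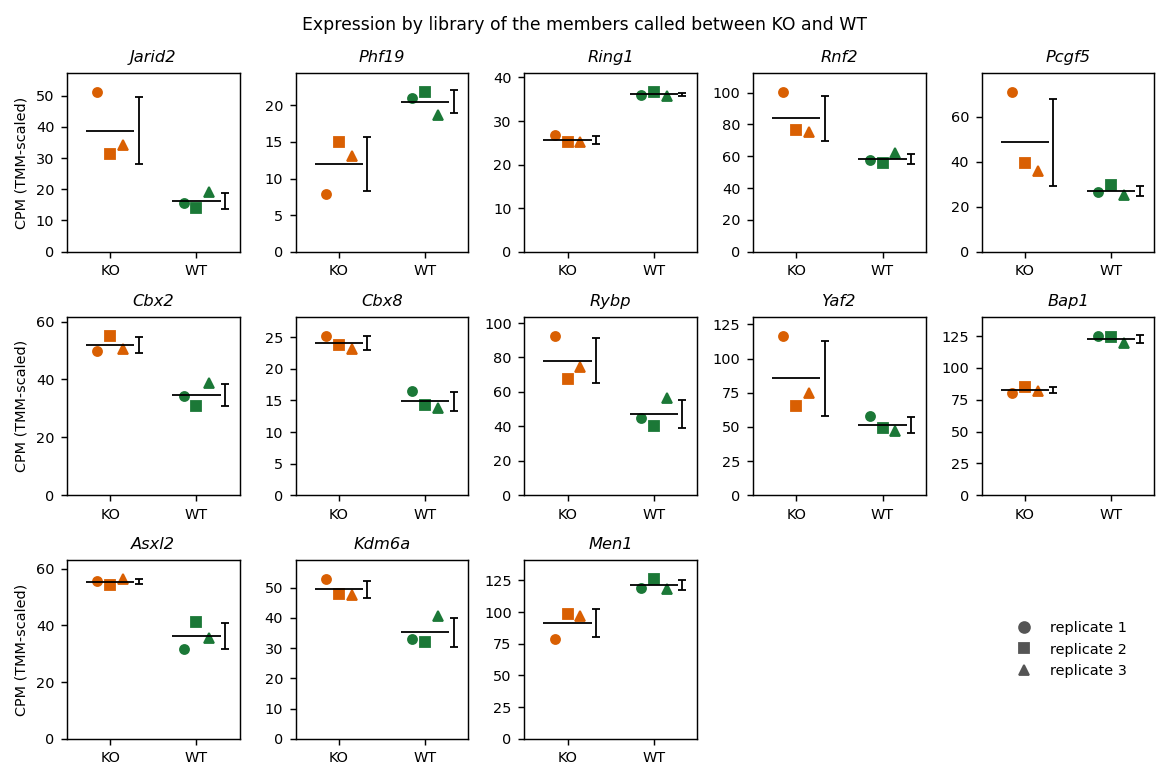
Level (CPM in TMM-scaled libraries) of each of the 13 called members in the KO and WT libraries (symbols for replicates 1, 2 and 3, lines for means, bars for SD, n = 3 per group). No member has overlapping groups, KO replicate 1 lies apart for Jarid2, Pcgf5 and Yaf2, and Bap1, Ring1, Asxl2 and Cbx8 have tight KO libraries.

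The 3 Polyhomeotic genes, whose products polymerise canonical PRC1, were not called. Phc1 had a log2 fold change of -0.41 (SE 0.15, adjusted p = 0.0874), Phc2 of -0.32 (SE 0.10, adjusted p = 0.0784) and Phc3 of 0.50 (SE 0.26, adjusted p = 0.117). Phc1 and Phc2 were below WT in every KO library, and Phc1 was called without KO replicate 1 (-0.55, adjusted p = 0.00502). With a GC offset the sign of Phc2 turned, to 0.17 (adjusted p = 0.264), and with the robust one it stood at -0.02 (adjusted p = 0.921). Phc3 stood at 155, 103 and 91.4 CPM in KO and at 70.7, 85.2 and 91.9 CPM in WT, so that its groups overlapped. Phc3 made up 26.8 ± 6.18% of the family per kilobase in KO and 17.0 ± 1.78% in WT (SD, n = 3 each).

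Rybp and Yaf2, alternative subunits of variant PRC1 that bind ubiquitinated H2A, rose by nearly the same amount. Rybp stood at 92.5, 67.4 and 74.2 CPM in KO and at 44.6, 40.4 and 56.5 CPM in WT, and Yaf2 at 117, 65.0 and 75.1 CPM in KO and at 58.0, 49.0 and 47.3 CPM in WT. In both genes all KO libraries were above all WT libraries and KO replicate 1 was the highest. Rybp averaged 78.0 ± 13.02 CPM in KO and 47.2 ± 8.35 CPM in WT (log2 fold change 0.73, SE 0.20, adjusted p = 0.0186), and Yaf2 averaged 85.6 ± 27.3 CPM in KO and 51.4 ± 5.72 CPM in WT (log2 fold change 0.73, SE 0.27, adjusted p = 0.0425). Leaving out KO replicate 1 brought the log2 fold changes to 0.59 for Rybp and 0.45 for Yaf2, both called. The Rybp call was lost when WT replicate 1 or 2 was left out (adjusted p = 0.0773 and 0.0840) and with library totals (0.0507), and that of Yaf2 without KO replicate 3 (0.0544), WT replicates 1, 2 or 3 (0.0836, 0.141 and 0.139), with library totals (0.0756), limma-voom (0.0513) or the robust GC offset (0.0536). Of the 50-base pieces of Rybp transcripts, 9.5% also occur in other transcripts, among them the pseudogene Rybp-ps, whose reads the counting could have assigned to either. Kdm2b, which recruits the Pcgf1 form of PRC1 to CpG islands, stood at 43.8, 51.1 and 53.6 CPM in KO and at 54.9, 62.2 and 58.8 CPM in WT, without overlap (log2 fold change -0.24, SE 0.10, adjusted p = 0.171). Other transcripts share 23.8% of the 50-base pieces of Kdm2b, so its level is uncertain.

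In the module that takes ubiquitin off H2A, the enzyme fell and 1 of its 2 ASXL cofactors rose. Bap1 (ENSMUSG00000021901, chromosome 14, 31251450 to 31259944, plus strand), the deubiquitinase, stood at 80.6, 84.8 and 82.1 CPM in KO and at 125, 124 and 119 CPM in WT. Asxl2 (ENSMUSG00000037486, chromosome 12, 3426857 to 3506852, plus strand), an activating cofactor of BAP1, stood at 55.8, 54.4 and 56.2 CPM in KO and at 31.8, 41.0 and 35.7 CPM in WT. Within each group the libraries were close together for Bap1, and no groups overlapped for either gene. Bap1 averaged 82.5 ± 2.15 CPM in KO and 123 ± 3.14 CPM in WT (SD, n = 3 each), a log2 fold change of -0.57 (SE 0.03, adjusted p = 0.0042). Asxl2 averaged 55.5 ± 0.967 CPM in KO and 36.2 ± 4.64 CPM in WT, a log2 fold change of 0.62 (SE 0.11, adjusted p = 0.0102). Both calls held in each of the 6 fits that left out a library. Both also held with a GC offset, at -0.38 (adjusted p = 0.0219) for Bap1 and 0.44 (adjusted p = 0.0407) for Asxl2. Asxl1, the paralogue of Asxl2, stood at 73.9, 76.9 and 81.7 CPM in KO and at 85.0, 89.2 and 89.8 CPM in WT, with no overlap (log2 fold change -0.18, SE 0.05, adjusted p = 0.203). Asxl2 accounted for 25.1 ± 0.902% of the per-kilobase sum of Asxl1 and Asxl2 in KO and 16.1 ± 1.46% in WT.

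Among the H3K27 demethylases, Kdm6a (UTX) rose and Kdm6b (JMJD3) was not called. Kdm6a, which also belongs to the KMT2C and KMT2D complexes, stood at 52.8, 48.1 and 47.5 CPM in KO and at 32.9, 32.1 and 40.7 CPM in WT. The groups did not overlap, and the log2 fold change was 0.49 (SE 0.12, adjusted p = 0.0303). Its call was lost without KO replicates 2 or 3 (adjusted p = 0.0588 and 0.0644), without WT replicates 1 or 2 (0.113 and 0.140), with library totals (0.28, 0.159) and with a GC offset (0.35, 0.0683). Kdm6b, an inducible demethylase, stood at 73.5, 37.8 and 42.5 CPM in KO and at 30.2, 32.5 and 39.9 CPM in WT. The groups overlapped, since KO replicate 2 was below WT replicate 3, and KO replicate 1 was far above all others. Kdm6b differed by 0.58 log2 (SE 0.32, adjusted p = 0.132), by 0.23 with KO replicate 1 left out (adjusted p = 0.195) and by 1.06 with a GC offset (adjusted p = 0.0285), or 0.88 with the robust one (adjusted p = 0.0575). Per kilobase of exon, Kdm6a stood at 5.90 CPM per kb in KO and 4.20 in WT, and Kdm6b at 7.37 in KO and 4.92 in WT.

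None of the 6 H3K4 methyltransferases was called. Kmt2c and Kmt2d, the enhancer monomethyltransferases, had log2 fold changes of opposite sign that did not pass the test. Kmt2c stood at 86.4, 63.4 and 64.6 CPM in KO and at 41.0, 50.7 and 60.2 CPM in WT (log2 fold change 0.50, SE 0.22, adjusted p = 0.0821). Kmt2d stood at 85.9, 126 and 115 CPM in KO and at 135, 158 and 161 CPM in WT (log2 fold change -0.47, SE 0.18, adjusted p = 0.0642). Neither gene had overlapping groups, and KO replicate 1 was the farthest from WT in both. Kmt2d was called without KO replicate 1 (-0.33, adjusted p = 0.0372), without KO replicate 2 (0.0489), with library totals (0.0311) and with DESeq2 (0.0419), and stood at -0.06 with a GC offset and -0.22 with the robust one. The log2 ratio of Kmt2c to Kmt2d per kilobase was -0.63 ± 0.54 in KO and -1.62 ± 0.15 in WT, a difference of 0.99, which was 0.67 without KO replicate 1, 0.62 with a GC offset and 0.72 with the robust one. Kmt2a and Kmt2b, the promoter enzymes of the menin complexes, stood at 116, 97.7 and 101 CPM and at 41.5, 42.4 and 41.8 CPM in KO, against 97.2, 109 and 128 CPM and 43.7, 44.5 and 52.2 CPM in WT. Only Kmt2a had overlapping groups, and the log2 fold changes were -0.09 (SE 0.14, adjusted p = 0.664) for Kmt2a and -0.16 (SE 0.08, adjusted p = 0.341) for Kmt2b. Setd1a and Setd1b, which place most trimethylation at H3K4, stood at 17.4, 18.7 and 19.0 CPM and at 12.1, 23.1 and 18.8 CPM in KO, against 20.2, 24.1 and 23.2 CPM and 17.5, 18.0 and 20.1 CPM in WT. Setd1a was below WT in every KO library (log2 fold change -0.29, SE 0.09, adjusted p = 0.145) and Setd1b overlapped (-0.04, SE 0.28, adjusted p = 0.910). With a GC offset the signs of Kmt2a, Kmt2b, Setd1a and Setd1b turned, to 0.01, 0.28, 0.06 and 0.39, and with the robust GC offset those of Kmt2b and Setd1b did, to 0.12 and 0.22. Of the 50-base pieces of Setd1a, 54% also occur in the transcript Gm49388, so its level is uncertain.

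Among the subunits shared by COMPASS complexes, Men1 fell and the 4 others were not called. Men1 encodes menin, which tethers KMT2A and KMT2B to chromatin, and stood at 78.5, 98.7 and 97.0 CPM in KO and at 119, 126 and 118 CPM in WT. Every KO library was below every WT library, with KO replicate 1 the lowest. Men1 averaged 91.4 ± 11.2 CPM in KO and 121 ± 4.08 CPM in WT (log2 fold change -0.41, SE 0.11, adjusted p = 0.0410). The call was lost without KO replicates 2 or 3 (adjusted p = 0.0580 and 0.0784), without WT replicates 1, 2 or 3 (0.103, 0.153 and 0.0914), without a filter on low counts (0.0590), and with a GC offset, where the value was -0.06 (0.721), or -0.19 with the robust one (0.220). Wdr5, Ash2l, Rbbp5 and Dpy30, the core that every KMT2 and SETD1 enzyme needs, had log2 fold changes of -0.02, -0.08, -0.11 and 0.03, all with overlapping groups and adjusted p values of 0.894, 0.671, 0.523 and 0.894.

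Paralogues that take the same place in a complex were compared by the log2 ratio of their per-kilobase levels in 10 pairs. With 3 libraries against 3 the smallest two-sided exact permutation p is 0.1, so no pair can pass a threshold of 0.05. That smallest value was reached by Rnf2 over Ring1 (difference of 1.00, KO minus WT, p = 0.1 exact, 0.5 adjusted over the 10 pairs) and Kmt2c over Kmt2d (0.99, p = 0.1 exact, 0.5 adjusted). Rbbp7 over Rbbp4 differed by 0.22 (p = 0.2 exact), with log2 ratios of 1.47 in KO and 1.25 in WT. Ezh2 over Ezh1 differed by -0.45 (p = 0.5 exact), with 0.10, 1.23 and 1.45 in KO and 1.55, 1.45 and 1.13 in WT, so that only KO replicate 1 was outside the WT range by more than 0.1. The other 6 pairs had exact p values of 0.5 to 1.

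**Figure D3:**
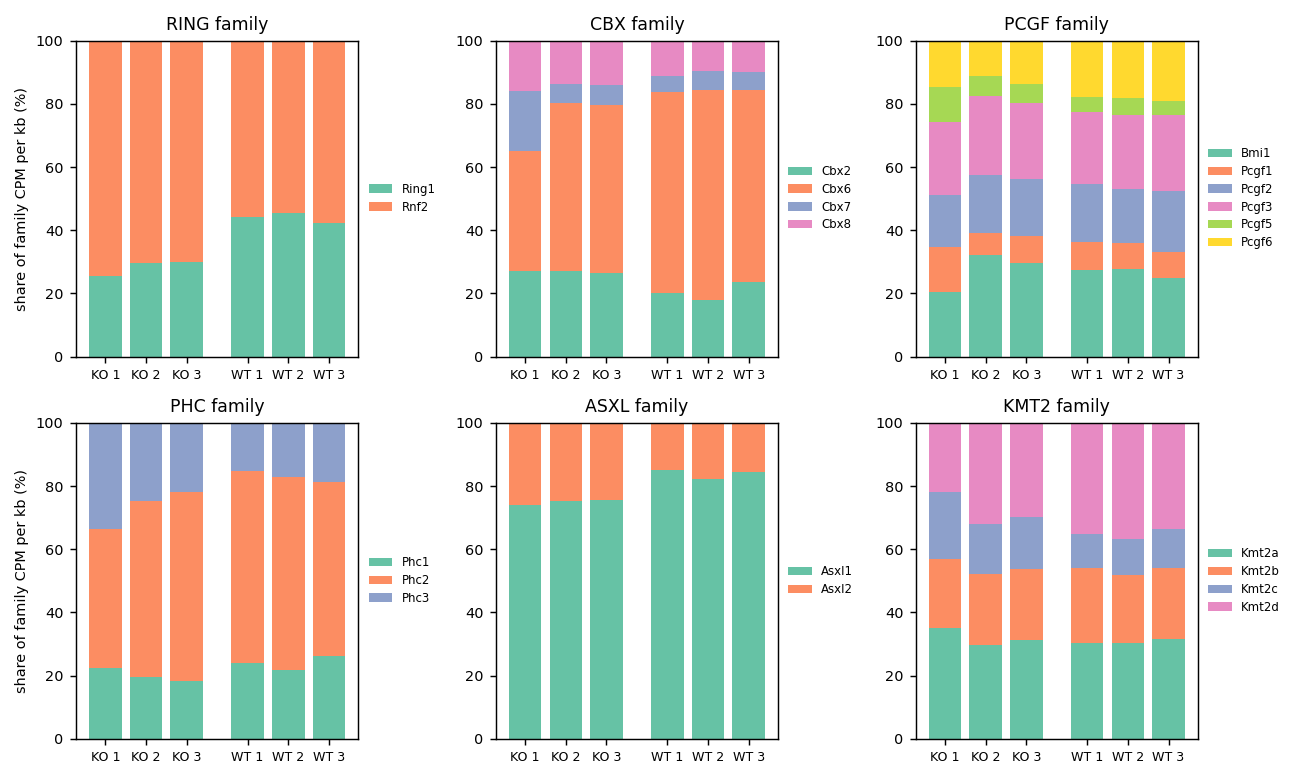
Share of each paralogue in the summed CPM per kb of its family (%) in the KO libraries (left of each panel) and WT libraries (right). Rnf2 takes 71.7% of the RING family in KO and 56.0% in WT, Asxl2 takes 25.1% of the ASXL family in KO and 16.1% in WT, and KO replicate 1 stands out in the CBX, PCGF and KMT2 panels.

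KO replicate 1 set much of the spread among the KO libraries. It was the highest KO library for 24 members, the lowest for 18 and between the others for 3. Its median absolute distance from the mean of KO replicates 2 and 3 was 0.318 log2, against 0.0861 log2 between those 2 libraries. It lay more than 0.5 log2 above them for Cbx7 (1.51), Pcgf1 (0.97), Pcgf5 (0.91), Kdm6b (0.87), Ezh1 (0.84), Yaf2 (0.73), Phc3 (0.67) and Jarid2 (0.64), and more than 0.5 log2 below them for Phf19 (-0.83), Setd1b (-0.79) and Cbx6 (-0.58). Actb was lowest in that library as well, at 276 counts, against 1988 and 1850 in the other KO libraries, and the relation of Actb level to the members was not tested. Members for which KO replicate 1 lay within 0.1 log2 of the others include Asxl2, Bap1, Cbx2 and Ring1 among those called.

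**Figure D4:**
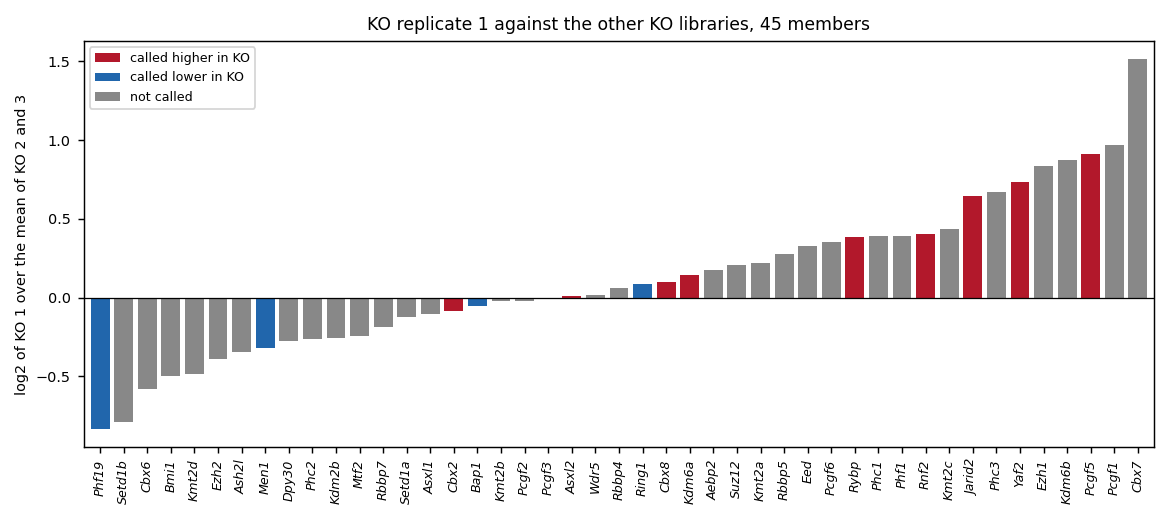
Log2 of the level in KO replicate 1 over the mean of KO replicates 2 and 3 for each of the 45 members (bars, ordered, coloured by the call of KO against WT). Cbx7 is at 1.51 and Phf19 at -0.83, and 8 members lie above 0.5 and 3 below -0.5.

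The direction of change went with base composition. Called higher members had a median GC content of 43.6% (range 39.5 to 57.6) in their longest transcript and called lower members one of 55.4% (53.8 to 57.0), with 50.7% for those not called. Across the 45 members, which share the same 6 libraries, GC content and log2 fold change had a Spearman correlation of -0.329 and a Pearson correlation of -0.287, and across 14958 tested genes with a GC value the Spearman correlation was -0.216. With a GC offset in each library the members' Spearman correlation was 0.202 and that of all genes 0.0945, and with the robust GC offset they were 0.0285 and 0.00827. Exon length had a Spearman correlation of -0.0228 with the members' log2 fold change. All 4 lower members are rich in GC, and of these Phf19, Ring1 and Men1 lost their calls with either offset while Bap1 kept its call. Of the 9 higher members, Rnf2, Pcgf5 and Kdm6a lost their calls with either offset, Yaf2 with the robust one alone, and Jarid2, Cbx2, Cbx8, Rybp and Asxl2 kept them.

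**Figure D5:**
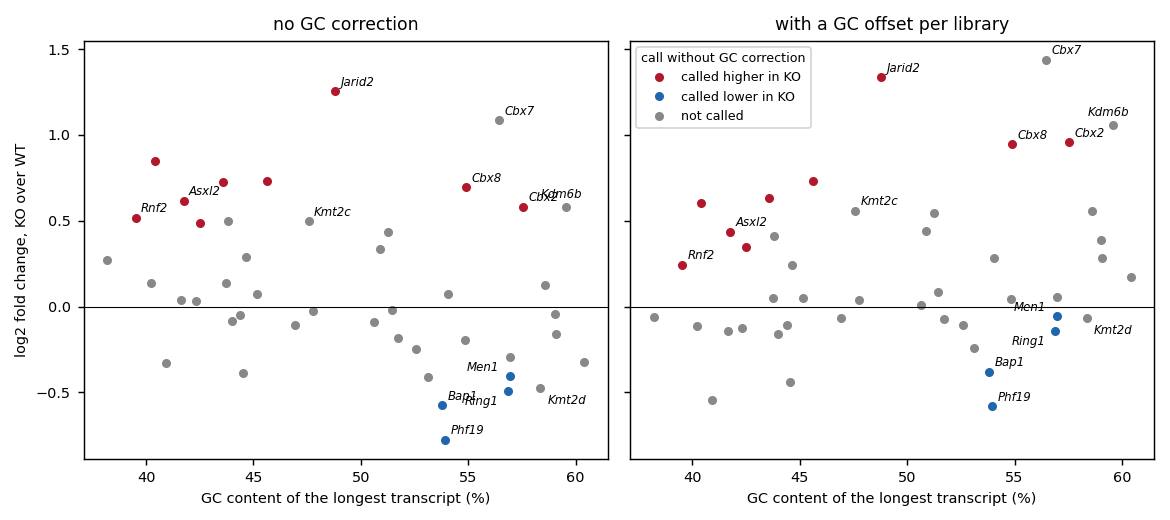
GC content of the longest transcript (%) against log2 fold change, KO over WT, of the 45 members, without a GC correction (left) and with a GC offset per library (right), coloured by the call without correction. On the right Ring1 and Men1 move to -0.14 and -0.06 while Jarid2, Cbx2 and Cbx8 stand at 1.34, 0.96 and 0.95.

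The other genes of these pathways come from lists by function, chosen like the members with earlier results of these data known. Apart from Kdm1b, Cdkn2a and Cdkn2b, the genes named from each list are those with the smallest p in each direction. They were picked for how they moved, and the counts are over the whole list. Of 23 tested further PRC1 and PRC2 subunits, 5 rose and 3 fell (34.8% called, median log2 fold change 0.02). Among all tested genes 28.3% were called, but the 5 include Scml2, so the shares are not alike. Scml2, a Polycomb protein known from the germ line in mice, passed the filter through the KO libraries alone. That favours a difference, and Scml2 is given as a description. It stood at 3.42, 4.54 and 3.62 CPM in KO and at 0.346, 0.189 and 0.304 CPM in WT, or 91, 153 and 133 counts in KO and 11, 6 and 9 counts in WT. No other called gene of that list passed through 1 group alone. Its relatives with malignant brain tumour (MBT) repeats moved apart: Sfmbt2 rose, at 24.2, 9.84 and 16.5 CPM in KO and 3.93, 3.02 and 3.44 CPM in WT (2.28, adjusted p = 0.00256), and Sfmbt1 fell, at 20.0, 24.0 and 20.2 CPM in KO and 40.6, 49.7 and 50.1 CPM in WT (-1.13, adjusted p = 0.00144). Without WT replicate 2 the list had 3 higher and 2 lower genes, and without KO replicate 1 it had 8 and 4. Of 9 further deubiquitinase partners and H2A deubiquitinases, only Usp21 was called (-0.46, adjusted p = 0.0248). That is 11.1% of the list, against 28.3% of all tested genes. The Usp21 call was lost with a GC offset (-0.06, 0.734), the robust one (-0.21, 0.265) and without KO replicates 2 or 3 or WT replicates 2 or 3 (0.0736 to 0.109). Of 17 tested further COMPASS and trithorax subunits, 1 rose and 3 fell (23.5% called, against 28.3% of all tested genes, median -0.12). Mllt1, the ENL subunit of elongation complexes, fell by 0.53 on the log2 scale (adjusted p = 0.0170), Paxip1, which encodes PTIP of the KMT2C and KMT2D complexes, fell by 0.40 (adjusted p = 0.0255), and Mllt3, the AF9 paralogue of Mllt1, rose by 1.29 (adjusted p = 0.0297), with 137 CPM in KO replicate 1 against 55.4 and 56.0 CPM in the other KO libraries and 30.0 to 36.9 CPM in WT. The calls of Mllt1 and Mllt3 were lost when any 1 WT library was left out (0.0515 to 0.0644 and 0.0873 to 0.110), and Mllt3 rose by 0.72 without KO replicate 1. Mllt1 was at -0.08 with a GC offset and -0.25 with the robust one (0.657 and 0.143). The Paxip1 call held only without KO replicate 1 among the fits that left out a library, and was lost with a GC offset (0.0513). No gene of that list was called without WT replicates 2 or 3.

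Lysine demethylases of H3K4 act against the KMT2 and SETD1 enzymes. The list of them had 3 higher genes and none lower among 5 tested (median log2 fold change 0.39). The share called was 60%, against 28.3% of all tested genes, in a list of only 5. These 5 include Kdm2a, better known for acting on H3K36. Kdm1b, which also acts on H3K4, was counted among the further PRC1 and PRC2 subunits instead. It was called lower (log2 fold change -0.64, adjusted p = 0.00959). Both the share and its single direction therefore depend on how the list was drawn. Kdm5b, which removes trimethylation at H3K4, stood at 51.9, 46.9 and 48.2 CPM in KO and at 20.7, 19.0 and 22.4 CPM in WT (log2 fold change 1.24, adjusted p = 0.000499). Kdm5c, its X-linked relative, rose by 0.56 (adjusted p = 0.00796) and Kdm1a (LSD1) by 0.39 (adjusted p = 0.0247). Kdm5b kept its call in each of the 6 fits that left out a library, whereas Kdm5c lost it without WT replicate 2 (0.0562) and with library totals (0.35, 0.0613). Kdm1a lost it when any library other than KO replicate 1 was left out (0.0575 to 0.102) and with library totals (0.18, 0.178). In all 3 the KO libraries were above the WT libraries, and the count of calls was 1 without WT replicate 2, 1 with library totals and 2 in the other fits without a library, except that without KO replicate 1 it stayed at 3.

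Developmental regulators known as Polycomb targets changed in both directions. Of 40 listed targets 14 were under the filter, and of the 26 tested 9 rose and 9 fell (69.2% called, median log2 fold change -0.11). Passing the filter through 1 group only, as Zic1 and Msx1 did, favours a difference, so that share is not set against the background. Zic1 had 0, 0 and 6 counts in KO and 1485, 1423 and 1429 counts in WT, and Msx1 had 2, 7 and 4 counts in KO and 743, 621 and 639 counts in WT, while Msx2, the paralogue of Msx1, stood at 29.4, 27.1 and 20.3 CPM in KO and at 2.33, 1.98 and 2.43 CPM in WT. Zic2 stood at 1.77, 1.45 and 2.15 CPM in KO and at 20.5, 21.9 and 24.5 CPM in WT. Cdkn2a, the cell cycle inhibitor locus held down by Bmi1 and Cbx7 in young fibroblasts, stood at 801, 607 and 594 CPM in KO and at 444, 399 and 392 CPM in WT (log2 fold change 0.70, adjusted p = 0.0135), and its neighbour Cdkn2b rose by 0.60 (adjusted p = 0.0209). The Cdkn2a call was lost without WT replicates 2 or 3 (0.0699 and 0.0585), and that of Cdkn2b without KO replicate 2 (0.0568), without WT replicates 1 or 2 (0.0707 and 0.0976) and with library totals (0.40, 0.0995). In the list of 28 cell cycle genes, 4 rose and 2 fell (21.4% called, against 28.3% of all tested genes, median -0.08). Their summed level was 6008 to 6125 CPM in KO and 5833 to 6399 CPM in WT. E2f1 and E2f2 fell by 0.74 and 1.09 on the log2 scale (adjusted p = 0.0102 and 0.0157) and Plk1 rose by 0.58 (adjusted p = 0.0166). E2f1 was at -0.32 with a GC offset and -0.48 with the robust one, not called in either (0.193 and 0.0795). E2f2 was not called without WT replicate 2 (0.0716), and Plk1 not with library totals (0.38, 0.0530). Without KO replicate 1 the targets had 9 higher and 13 lower genes and the cell cycle list 6 and 5, and without any 1 WT library the cell cycle list had 1 higher gene.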

How the data were processed

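RNA sequencing of 6 libraries, 3 KO and 3 WT, was analysed from raw read counts per gene as deposited by the authors, whole numbers in 1 file per library. GRCm38.p4 is the build named in the submitters' processing notes, beside TopHat2 2.1.0 and, without versions, HTSeq and DESeq2. Per the labels' protocols, RNA was taken up with TriZol LS and RNeasy and made into libraries using a TruSeq RNA Library Prep Kit v2. Annotation release, strand setting and read filters: not given in the sources used here. Of 46603 identifiers, 46091 matched GENCODE M21 (GRCm38), which gave symbols, positions, exon length and GC content of the longest transcript.

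The model was fitted in R 4.3.3 with edgeR 4.0.16 on genes kept by filterByExpr, TMM-scaled, with genotype alone as a term and the quasi-likelihood F test (two-sided). Calls were made below an adjusted p of 0.05 (Benjamini-Hochberg, 15009 genes). A log2 fold change sets KO over WT, and its standard error was computed from the mean log2 CPM of each group. Levels are compared between genes only as CPM per kb of merged exons. Called members summed to 1196 to 11460 counts per group, and replicates differed by more than sampling noise, with a chi-square per degree of freedom of 17.1 to 173 between libraries of a group. The code was tested on simulated data.

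Every called member and each catalytic member is given with its values per library. From each list other than the cell type markers, the called genes with the 3 smallest p are named, plus the first in the other direction. The members, lists and tests were chosen with earlier results of these data known. The other settings tried were scaling by RLE, by upper quartile and by library totals, DESeq2 1.42.0 and limma-voom (limma 3.58.1) in place of edgeR, no filter or a minimum CPM of 1 in 3 libraries, the replicate number as a block, a GC offset (a natural spline with 5 degrees of freedom per library) with and without that block, testing against log2 changes of 1, and leaving out each library. The GC offset by robust regression and the paralogue ratios with a GC offset were chosen after seeing the data. The labels do not pair equally numbered KO and WT libraries.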

Additional observations from a re-analysis of the deposited data

How the results depend on the processing

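The members' counts of 9 higher and 4 lower kept within 1.5 times under RLE scaling, DESeq2, limma-voom, no filter and a minimum CPM of 1. The higher count was 3 with library totals, 5 with the GC offset plus the replicate block, 5 with the robust GC offset and 0 against a log2 fold change of 1. The lower count was 7 with upper-quartile scaling, 12 with library totals, 1 with the replicate block, 2 with the GC offset, 1 with that offset plus the block and 0 against a log2 fold change of 1. Leaving out 1 library gave 2 to 13 higher and 1 to 8 lower members. The highest counts of both came without KO replicate 1, which also gave 6537 called genes in all, against 4255 with every library, and the other 5 fits gave 2298 to 3806. Equally numbered KO and WT libraries are not paired by the labels. Their deviations from the group means correlated at -0.153, 0.0929 and -0.211. With so few libraries, these values cannot settle whether equally numbered libraries were handled together. The block gave 6 higher and 1 lower members. KO replicates 1 and 3 correlated best with WT replicates of other numbers (0.188 and 0.228), and KO replicate 2 with WT replicate 2 (0.0929).

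Of 810 log2 fold changes for the 45 members, 54 turned sign, 82 lost a call, 32 gained one and 642 kept direction and call. All 54 belong to 19 members that were not called. Aebp2 gained a call in 8 settings. With library totals, Suz12 was -0.169, Rbbp4 -0.130, Phf1 -0.0833, Bmi1 -0.0561, Pcgf2 -0.129, Pcgf3 -0.0638 and Dpy30 -0.163. With upper-quartile scaling Suz12 was -0.0228 and Dpy30 -0.0233. With the GC offset, and then with the block added, Eed was 0.0388 and 0.0323, Suz12 -0.144 and -0.144, Mtf2 -0.0598 and -0.0626, Bmi1 -0.113 and -0.125, Cbx6 0.0473 and 0.0315, Phc2 0.170 and 0.167, Kmt2a 0.0082 and 0.0101, Kmt2b 0.283 and 0.290, Setd1a 0.0587 and 0.0614, Setd1b 0.388 and 0.353, Wdr5 0.0863 and 0.0870, and Dpy30 -0.126 and -0.118. With the robust one, Suz12 was -0.124, Bmi1 -0.0676, Kmt2b 0.116, Setd1b 0.220, Wdr5 0.0396 and Dpy30 -0.115. Over the fits without a library, Ezh2 ranged from -0.129 to 0.0685, Eed from -0.144 to 0.0469, Suz12 from -0.0419 to 0.0865, Phf1 from -0.0136 to 0.222, Pcgf1 from -0.0617 to 0.536, Kmt2a from -0.182 to 0.0221, Setd1b from -0.256 to 0.175, Ash2l from -0.160 to 0.0248, Wdr5 from -0.0587 to 0.0213 and Dpy30 from -0.0723 to 0.129. Among paralogue log2 ratios, Bmi1 over Pcgf2 was -0.394 with the GC offset and ranged from -0.0579 to 0.202. Cbx7 over Cbx8 ranged from -0.265 to 0.456. Cbx2 over Cbx8 was 0.0114 with the GC offset and ranged from -0.196 to 0.0205. Kdm6a over Kdm6b ranged from -0.201 to 0.211. Kmt2a over Kmt2b was -0.275 with the GC offset and ranged from -0.0074 to 0.129. The causes were not tested. Of 396 counts for the other lists, 320 stayed within 1.5 times and 76 did not.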
